A study of Homo sapiens with 6 samples.

Results

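Small nucleolar RNAs (snoRNAs) and small Cajal body RNAs (scaRNAs) were followed through a knockdown of the long noncoding RNA CHROME in HepG2 cells, a human line derived from a liver cancer and still active in many hepatocyte tasks. A gene counted as a member when its symbol began with SNORA, SNORD or SCARNA and a number, and when at least 3 of the 6 libraries held a value above 0 for it. Members were thus selected on detection and not on the groups. It kept 273 of 392 such genes, out of 23368 distinct genes in the table, in 3 classes: 93 of 106 H/ACA RNAs (SNORA), 157 of 262 box C/D RNAs (SNORD) and 23 of 24 Cajal body RNAs (SCARNA). Of the genes left out, 102 were listed at 0 in all 6 libraries.

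The cells behind 3 of the libraries, called shCHROME a, b and c, carried a pLKO lentiviral hairpin against all CHROME variants. Those behind EV a, b and c, the remaining 3, carried a non-targeting hairpin in the same vector. Both viruses were packaged in HEK293T, a human embryonic kidney line, and both sets of cells were transduced. The labels give neither the time after transduction nor any sign that replicates were independent cultures. The p-values therefore reflect only how far these libraries scatter, which could be technical scatter. CHROME itself was not analysed here.

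SnoRNAs guide chemical modification of other RNAs by base pairing. Box C/D RNAs, named for 2 short sequence boxes, lead the methyltransferase fibrillarin to the riboses of ribosomal RNA and of some spliceosomal RNAs, and H/ACA RNAs, which end shortly after an ACA triplet, lead the pseudouridine synthase dyskerin to uridines. ScaRNAs are built from the same boxes, collect in Cajal bodies and mostly guide the modification of spliceosomal RNAs. In human cells most of these RNAs are cut from introns of host transcripts, many of which encode ribosomal proteins or translation factors or are noncoding SNHG transcripts, and a hepatocyte line uses them to build ribosomes and spliceosomes as any dividing cell does.

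The sequences of RNAs on which the results turn are shown first, since lengths matter for the counts that follow. They are DNA-letter sequences of GRCh38 from GENCODE release 29, which is not the build of the deposited table (hg19), 5′ to 3′ on the strand of the gene. Capitals mark the ACA near the 3′ end in H/ACA and Cajal body RNAs, and the Cajal body box motif TGAG in Cajal body RNAs. In box C/D RNAs they mark the box C motif TGATGA in the first 20 bases and the box D motif CTGA in the last 20 bases. Not every RNA holds each motif. SNORD10 has no TGATGA there, and SCARNA21 has no TGAG, which leaves SCARNA21 with the marks of an H/ACA RNA. SNORA48 (chr17:7574713-7574847, plus strand), SNORD10 (chr17:7576811-7576952, plus strand) and SNORA67 (chr17:7577955-7578091, plus strand) lie in 1 host, EIF4A1, and each overlaps an exon of at least 1 of its annotated transcripts. So does SNORA63 (chr3:186787300-186787431, plus strand) in EIF4A2, and SCARNA16 (chr17:77089307-77089493, plus strand) in the noncoding SNHG20. SNORD17 (chr20:17962710-17962946, minus strand) lies in an intron of SNX5, SNORD94 (chr2:86135870-86136006, plus strand) in an intron of PTCD3 and SCARNA21 (chr17:7906122-7906260, plus strand) in an intron of CHD3.
SNORA48: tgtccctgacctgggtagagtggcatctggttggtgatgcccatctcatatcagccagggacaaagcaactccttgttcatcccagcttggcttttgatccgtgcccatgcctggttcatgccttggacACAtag
SNORA63: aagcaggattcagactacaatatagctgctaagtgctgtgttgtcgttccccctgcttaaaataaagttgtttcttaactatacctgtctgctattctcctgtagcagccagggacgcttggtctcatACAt
SNORA67: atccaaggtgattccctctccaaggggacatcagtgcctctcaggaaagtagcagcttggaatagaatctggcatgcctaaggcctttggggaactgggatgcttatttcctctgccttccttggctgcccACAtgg
SNORD10: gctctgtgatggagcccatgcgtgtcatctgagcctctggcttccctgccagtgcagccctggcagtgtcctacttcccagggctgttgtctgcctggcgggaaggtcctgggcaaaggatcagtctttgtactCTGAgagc
SNORD17: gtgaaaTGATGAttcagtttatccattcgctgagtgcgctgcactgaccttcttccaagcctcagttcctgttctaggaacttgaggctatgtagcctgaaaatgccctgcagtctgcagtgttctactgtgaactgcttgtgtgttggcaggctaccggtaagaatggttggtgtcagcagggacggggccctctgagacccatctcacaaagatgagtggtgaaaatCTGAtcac
SNORD94: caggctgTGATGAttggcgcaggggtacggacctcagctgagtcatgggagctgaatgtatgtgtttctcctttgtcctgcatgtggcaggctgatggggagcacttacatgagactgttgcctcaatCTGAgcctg
SCARNA16: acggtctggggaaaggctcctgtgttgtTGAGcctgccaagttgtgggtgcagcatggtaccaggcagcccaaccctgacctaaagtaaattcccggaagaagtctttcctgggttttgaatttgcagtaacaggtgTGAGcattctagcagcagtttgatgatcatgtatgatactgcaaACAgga
SCARNA21: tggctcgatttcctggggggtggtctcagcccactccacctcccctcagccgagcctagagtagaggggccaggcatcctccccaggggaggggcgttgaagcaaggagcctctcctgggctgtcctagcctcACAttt

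A sequence was found for 250 of the 273 members. Motifs of the class given by the symbol were counted on these letters, read on the strand of the gene. Box D (CTGA) stood in the last 20 bases of 136 of 140 box C/D members (97.1%, against 95% of all 278 box C/D RNAs in the annotation), and box C (TGATGA) in the first 20 bases of 97 (69.3% against 69.1%). ACA stood in the last 12 bases of 82 of 91 H/ACA members (90.1% against 89.8% of 147). Of the 19 Cajal body members with a sequence, 13 had that ACA (68.4% against 75.0% of 24) and 12 had TGAG at any position (63.2% against 70.8%). TGAG at any position also stood in 112 box C/D members (80.0%) and 40 H/ACA members (44.0%), so it did not separate the classes. Across classes, CTGA stood in the last 20 bases of 9 H/ACA members (9.9%) and 7 Cajal body members (36.8%). ACA stood in the last 12 bases of 12 box C/D members (8.6%). The annotation totals include the members and were picked by the same symbols, so close shares there are no check of the class. H/ACA members measured 121 to 272 bases with a median of 134, box C/D members 64 to 237 with a median of 80.5, and Cajal body members 125 to 420 with a median of 143.

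Levels are given as normalized counts, the deposited read counts divided by a size factor per library, in which 1 read is worth 0.914083 to 1.114941. How short RNAs without a poly(A) tail entered these libraries is not known, so the levels are counts and need not follow amounts in the cells. Library totals ran from 29477352 to 33911426 reads in shCHROME and from 29188213 to 35429420 in EV. Of 10 hepatocyte markers all were listed above 0. In the limma fit given below, at an adjusted p under 0.05, 7 were lower in shCHROME and 0 higher. That is 70% lower, against 6.87% of all genes tested. Of the 10 markers, 1 had a log2 fold change above 0 (0.16). The 10 together summed to 1163168 to 1362451 normalized counts in shCHROME and 1451499 to 1571077 in EV. The part of this shift in the results on small RNAs was not tested. Of 6 genes listed as markers of the kidney line used for packaging, 2 (NEFL and NEFM) were listed at 0 and CDH2 alone was high enough to test, lower in shCHROME. The sum of the 6 was 2598 to 2760 normalized counts in shCHROME and 3080 to 3215 in EV. Whether CDH2 reads came from HepG2 or packaging cells cannot be told from these counts, so this sum is no measure of packaging-cell RNA. Blood and stromal markers summed to at most 417 normalized counts in shCHROME and 472 in EV.

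All 3 classes together took 0.489% ± 0.0164 of the reads in shCHROME and 0.404% ± 0.025 in EV (SD, n = 3 each). H/ACA RNAs summed to 38009, 40170 and 39649 normalized counts in shCHROME replicates a, b and c, against 33653, 30617 and 30109 in EV replicates a, b and c. Every shCHROME library was above every EV library. Box C/D RNAs summed to 59086, 65815 and 58712 in shCHROME, against 54589, 47843 and 46520 in EV, again without overlap. SNORD17 alone made up 79.5% of the box C/D sum. Without it the box C/D sum was 12210, 12394 and 12372 in shCHROME, against 11056, 10341 and 9940 in EV, so that the groups were apart with and without this RNA. Cajal body RNAs summed to 57018, 50839 and 49919 in shCHROME and to 51377, 52334 and 46067 in EV, and here the groups overlapped. In a bulk sample, more RNA per cell and more cells that hold the RNA cannot be told apart.

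**Figure D1:**
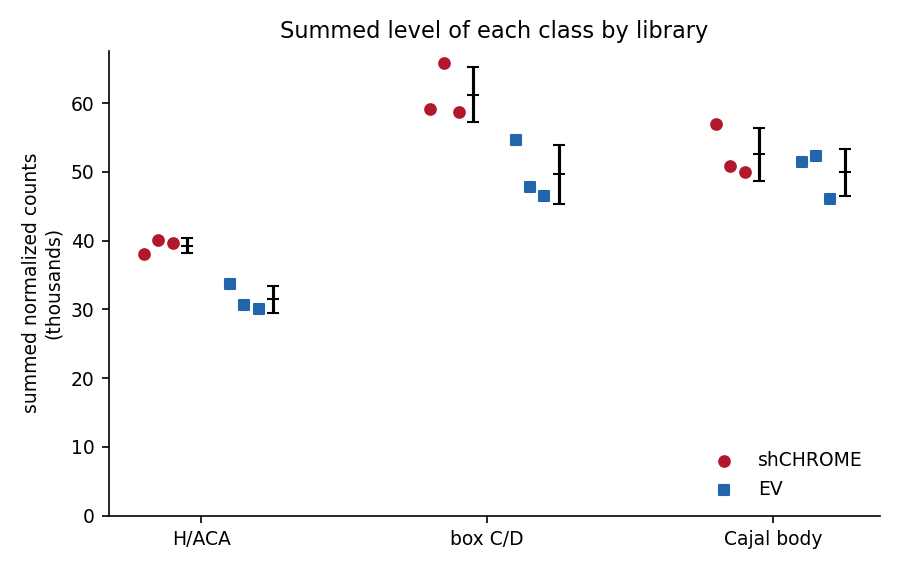
Summed normalized counts, in units of 1000, of the members of each class in each library, shCHROME (red circles) left of EV (blue squares), with the group mean and SD (n = 3 each) as bars. The groups are apart for H/ACA (38009 or more against 33653 or less) and box C/D RNAs and overlap for Cajal body RNAs.

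Of the 273 members, 228 had enough reads to be tested (82 H/ACA, 124 box C/D and 22 Cajal body RNAs). In the limma fit over all 14598 genes tested, 31 were higher in shCHROME at an adjusted p under 0.05 and 0 were lower. Over all genes, 3.64% were called higher and 6.87% lower. Of the 31, 20 were H/ACA RNAs (24.4% of those tested), 8 were box C/D RNAs (6.45%) and 3 were Cajal body RNAs (13.6%). At an unadjusted p under 0.05, 54 members were higher and 1, SNORA5C, was lower. The edgeR quasi-likelihood test called 31 higher and 0 lower, where it called 3.69% of all genes higher and 6.95% lower. DESeq2 called 29 higher and 0 lower, where it called 4.29% and 7.87% of all genes. In the authors' deposited table, with 3.02% of its genes higher and 6.02% lower, 27 members were higher and 0 lower, and all 27 were among the 31. The changes were modest: the called members were 1.21-fold to 2.89-fold higher, with a median of 1.38-fold.

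The log2 fold change was above 0 in 170 of the 228 tested, the 31 called included, against 52.2% of all genes tested, and its median was 0.21 against 0.01 for all genes. Of the 197 tested members that were not called it was above 0 in 139, with a median of 0.14. By class, over all tested members, the median was 0.27 for H/ACA, 0.14 for box C/D and 0.17 for Cajal body RNAs. Over all 273 members, tested or not, the difference was above 0 in 199, with medians of 0.27, 0.14 and 0.17 for H/ACA, box C/D and Cajal body RNAs. The groups did not overlap in 66 tested members with shCHROME above EV and in 6 with shCHROME below, where 13% and 15% of all genes tested did so. No tested member had under 10 reads in every library of a group. The 45 members not tested had between 0.667 and 11 reads per library on average.

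**Figure D2:**
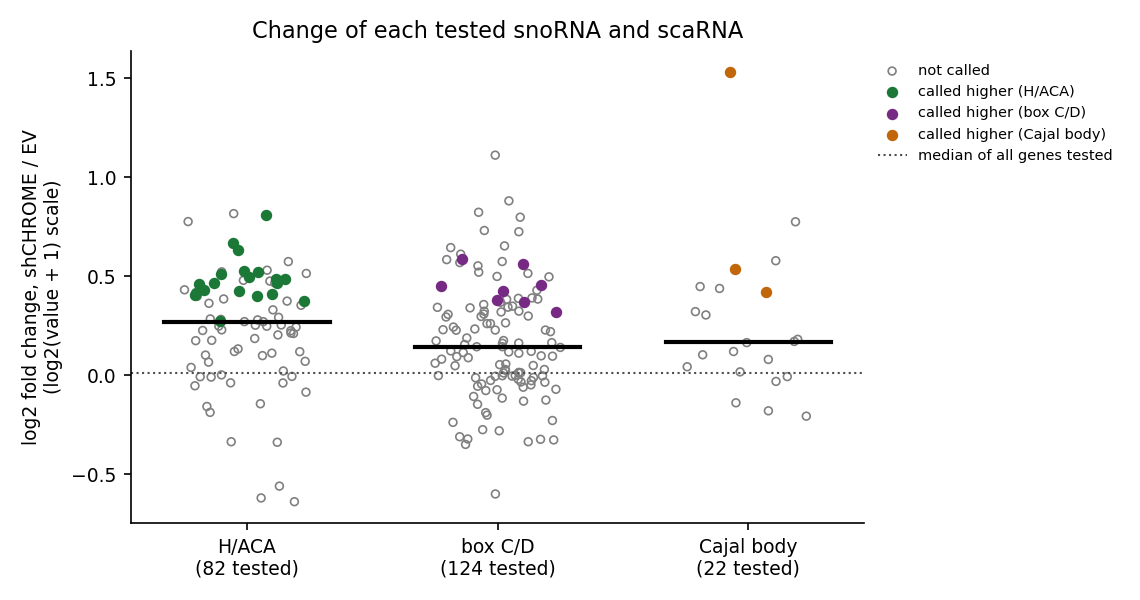
Log2 fold change (shCHROME over EV) of each of the 228 tested RNAs by class, with the class median as a black bar and the median of all genes tested as a dotted line. Filled points were called at an adjusted p under 0.05, 20 H/ACA, 8 box C/D and 3 Cajal body RNAs, all above 0. Points are spread sideways for legibility only.

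H/ACA RNAs held most of the calls. SNORA48, which guides pseudouridylation of the large ribosomal subunit RNA, was the most abundant, with 16.7% of the class sum. It stood at 6462, 6911 and 6860 normalized counts in shCHROME replicates a, b and c, against 5153, 5141 and 4976 in EV. The lowest shCHROME value was well above the highest EV value. The mean was 6744 ± 246 in shCHROME and 5090 ± 98.7 in EV (SD, n = 3 each), 1.32-fold higher with an adjusted p of 9.79e-05 (limma). SNORA63, printed above with SNORA48 and also assigned to the large subunit RNA, stood at 5633, 5995 and 6267 in shCHROME, against 4678, 4067 and 4205 in EV. It was 1.38-fold higher (95% interval of the log2 fold change 0.33 to 0.60, adjusted p 0.000104).

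SNORA8, a guide for the large subunit RNA, varied little among EV libraries, with 758, 837 and 842 normalized counts in shCHROME against 580, 580 and 577.5 in EV, and was 1.40-fold higher. SNORA70, a guide for the small ribosomal subunit RNA, stood at 1804, 1948 and 1758 in shCHROME against 1477, 1308 and 1397 in EV, 1.32-fold higher. SNORA57, also a guide for the small subunit RNA, stood at 1845, 1869 and 1876 in shCHROME against 1608, 1264 and 1338 in EV, 1.33-fold higher. In each of the 3 the groups did not overlap, and the adjusted p was 0.000752, 0.0012 and 0.0023.

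The other 15 H/ACA RNAs that rose were SNORA54, SNORA61, SNORA23, SNORA38, SNORA21, SNORA78, SNORA76, SNORA71B, SNORA22, SNORA47, SNORA49, SNORA68, SNORA50, SNORA10 and SNORA14A. SNORA68 had the smallest rise of the 20, 1.21-fold, with 1099, 1035 and 1155 normalized counts in shCHROME against 944, 912 and 861 in EV. SNORA50 had the largest, 1.75-fold, but on 76.6, 48.6 and 87.2 against 35.7, 39.3 and 41.8, so its size rests on few reads. SNORA78 was 1.59-fold higher, with 149, 140 and 139 in shCHROME against 85.8, 100.5 and 82.6 in EV. SNORA71B was 1.55-fold higher, with 189, 239 and 168 in shCHROME against 140, 112 and 128 in EV. Their adjusted p ran up to 0.0424 for SNORA14A, which lost the call in DESeq2.

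The count of H/ACA calls fell when some single libraries were left out: it was 12 without EV replicate b and 13 without EV replicate c, against 20 with all libraries. Libraries of both groups cost calls. Over all classes, the calls kept of 31 were 29, 24 and 23 without shCHROME replicate a, b or c. They were 28, 22 and 20 without EV replicate a, b or c. The number of all genes called higher also fell with any library left out, as given in the last section. The part of this in the H/ACA count was not tested. Calls followed read depth. Of 15 tested H/ACA RNAs with a mean of at least 500 reads, 8 were higher and all 15 had a log2 fold change above 0. Of 33 with 100 to 500 reads 11 were higher, of 23 with 20 to 100 reads 1 was, and of 11 with fewer 0 were by limma, with 1 at an unadjusted p under 0.05. The median log2 fold change was 0.27, 0.27, 0.29 and 0.07 in these 4 ranges, so the first 3 ranges had close medians where the share called differed.

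Other abundant H/ACA RNAs did not pass. SNORA74A, a guide for the large subunit RNA, stood at 2650, 3100 and 2817 normalized counts in shCHROME and at 2860, 2462 and 2287 in EV, where the groups overlapped (log2 fold change 0.17, adjusted p 0.181). SNORA71A stood at 1649, 1752 and 1802 in shCHROME and at 1774, 1473 and 1512 in EV, also with overlap (0.13, adjusted p 0.304). The largest negative values among RNAs with a mean of at least 20 reads belonged to SNORA5A and SNORA5C, neighbours in introns of TBRG4 and guides for the small subunit RNA. SNORA5A stood at 95.3, 89.9 and 82.9 in shCHROME against 132, 103 and 107 in EV (log2 fold change -0.34, adjusted p 0.22). SNORA5C stood at 119, 115 and 132 in shCHROME against 134, 168 and 161 in EV (-0.34, adjusted p 0.17). The groups did not overlap in either RNA, yet neither was called. SNORA55 came next with -0.19, and its groups overlapped.

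**Figure D3:**
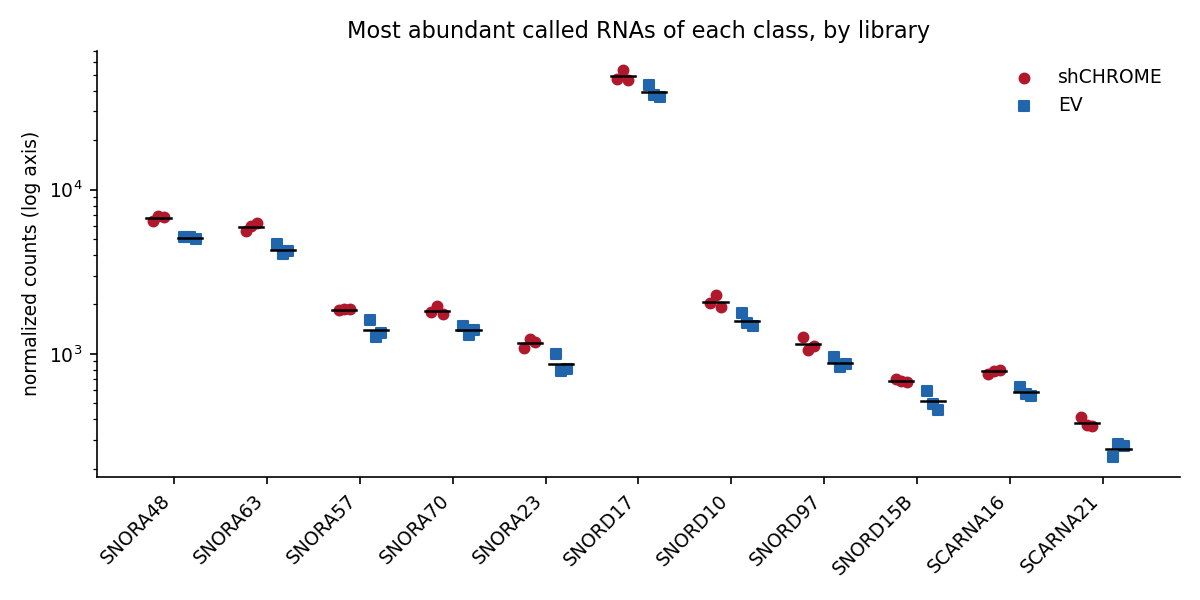
Normalized counts (log axis) of the most abundant called RNAs of each class in each library, shCHROME (red circles) left of EV (blue squares), with the group mean as a line. In all 11 RNAs shown every shCHROME library is above every EV library, with means from 48879 against 39205 for SNORD17 to 382 against 264 for SCARNA21.

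Among box C/D RNAs the 5 most abundant and 3 others rose. SNORD17, a guide for methylation of the large subunit RNA, had the highest level per length of all members, 18583 normalized counts per 100 bases over the 6 libraries, followed by SNORA48 with 4383. SNORD17 stood at 46876, 53420 and 46340 normalized counts in shCHROME replicates a, b and c, against 43533, 37502 and 36580 in EV. The groups were apart by less than their own ranges, with a mean of 48879 ± 3942 in shCHROME and 39205 ± 3776 in EV (SD, n = 3 each), 1.25-fold higher (adjusted p 0.00732). SNORD10, which guides methylation of the spliceosomal RNA U6 and lies beside SNORA48 in EIF4A1, stood at 2040, 2271 and 1924 in shCHROME, against 1773, 1535 and 1484 in EV. It was 1.30-fold higher (adjusted p 0.00416). SNORD94, also a U6 guide, stood at 547, 597 and 586 in shCHROME, against 452, 430 and 382 in EV, 1.37-fold higher (adjusted p 0.00444).

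SNORD97, which guides methylation of a methionine transfer RNA, stood at 1267, 1059 and 1112 normalized counts in shCHROME, against 952, 829 and 871 in EV, and was 1.29-fold higher. SNORD15B, a guide for the large subunit RNA, stood at 702, 684 and 675 in shCHROME, against 594, 498 and 454 in EV, and was 1.34-fold higher. Both were without overlap. SNORD89 was 1.37-fold higher with an adjusted p of 0.0419. SNORD116-20 and SNORD116-21, copies from the imprinted cluster in SNHG14 whose loss is tied to Prader-Willi syndrome and which have no known ribosomal target, were 1.5-fold and 1.48-fold higher. SNORD116-20 stood at 226, 219 and 229 in shCHROME, against 130, 155 and 164 in EV. Of 22 SNORD116 copies among the members 17 were tested, and 14 of these had a log2 fold change above 0 (median 0.39). They resemble each other, 11 other annotated RNAs being at least 90% identical to each of the called pair, and the counting can split such reads, so single copies are uncertain. SNORD116-18, the copy with the most reads, stood at 286, 219 and 295.5 in shCHROME and at 203, 200 and 232 in EV, with overlap (adjusted p 0.137).

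Box C/D RNAs were also read by length and by depth. Of 13 tested members of at least 100 bases 6 were higher, and their log2 fold changes had a median of 0.37. Of 94 under 100 bases 2 were higher, the SNORD116 pair, and the median was 0.12. The other 17 tested box C/D RNAs had no sequence matched by symbol, so their length was not read. None of them was called by limma, with 1 at an unadjusted p under 0.05. The length of 100 bases was chosen after seeing the values. The longer ones also had more reads, a median of 83.8 per library over all 17 of them against 24.2 over all 123 shorter ones. By depth, 4 of 4 with a mean of at least 500 reads were higher and 4 of 21 with 100 to 500 reads. Below that, limma called 0 of 70 with 20 to 100 reads, with 4 at an unadjusted p under 0.05, and 0 of 29 with fewer, with 0 at that p. The part of depth in the calls was not tested. Over 80 members with at least 20 reads and a known length, Spearman's rho was 0.40 between length and log2 fold change and -0.03 between level and log2 fold change, a description across RNAs that share the same libraries. Without EV replicate c the box C/D calls fell to 5 of the 8, and the number of all genes called higher fell as well. The largest log2 fold changes among box C/D RNAs with at least 20 reads were 0.88 for SNORD58C, 0.80 for SNORD116-8 and 0.72 for SNORD38B, none of them called. The largest negative values were -0.34 for SNORD18C, -0.33 for SNORD116-4 and -0.32 for SNORD36C, also uncalled and each with overlapping groups.

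Cajal body RNAs are given by length, which was read for the 18 of the 22 tested that had a matched sequence. The 6 of these that measure at least 200 bases are abundant guides for spliceosomal RNAs. Limma, edgeR and DESeq2 called 0 of the 6 in either direction. At an unadjusted p under 0.05 the count was 1, and the median log2 fold change was 0.04. SCARNA2, a methylation guide for U2, stood at 13911, 14690 and 12846 normalized counts in shCHROME and at 13283, 13272 and 12022 in EV. SCARNA10, a guide for U5, stood at 15143, 13355 and 12726 in shCHROME and at 12880, 12740 and 11005 in EV (log2 fold change 0.17, adjusted p 0.141). Both pairs of groups overlapped, but with libraries scaled to their totals SCARNA10 was called higher (log2 fold change 0.22, limma adjusted p 0.0461). SCARNA12 and SCARNA5, guides for U5 as well, had log2 fold changes of -0.01 and 0.08, and the sign of the first changed with the scaling.

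SCARNA7, a methylation guide for U1, gave the most negative value, and its libraries disagreed. It stood at 6039, 3716 and 5035 normalized counts in shCHROME and at 5422, 6075 and 5278 in EV, so that shCHROME b was the lowest library by far while shCHROME a was close to the highest EV library. The log2 fold change was -0.21 (95% interval -0.44 to 0.03, adjusted p 0.279). Without shCHROME replicate a it was -0.37 with an adjusted p of 0.00944. SCARNA9L and SCARNA6 followed with -0.14 and -0.03, both with overlapping groups.

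The Cajal body RNAs called with the deposited scaling were shorter. SCARNA16 stood at 757, 787 and 803 normalized counts in shCHROME, against 631, 571 and 551 in EV, and was 1.34-fold higher (adjusted p 0.00307). SCARNA21 stood at 413, 370 and 364 in shCHROME, against 234, 283 and 275 in EV, and was 1.45-fold higher (adjusted p 0.00459). In both, the lowest shCHROME library was above the highest EV library. SCARNA11 had the largest fold of all called members, 2.89-fold, on 18, 30 and 20 reads in shCHROME against 9, 12 and 3 in EV (95% interval of the log2 fold change 0.58 to 2.48, adjusted p 0.0369). SCARNA1 and SCARNA22, without overlap at 1.49-fold and 1.25-fold, missed the threshold with adjusted p of 0.0691 and 0.0904. Of the 12 tested members under 200 bases, 11 had a log2 fold change above 0, with a median of 0.43. The length of 200 bases was chosen after seeing the values. The 4 tested members without a matched sequence, SCARNA9, SCARNA9L, SCARNA4 and SCARNA27, were placed in neither range, whatever their length. They were not called. Over 13 members with at least 20 reads and a known length, Spearman's rho was 0.88 between length and level, -0.66 between length and log2 fold change and -0.74 between level and log2 fold change, a description across RNAs of the same libraries. The part of level in the split by length was not tested.

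**Figure D4:**
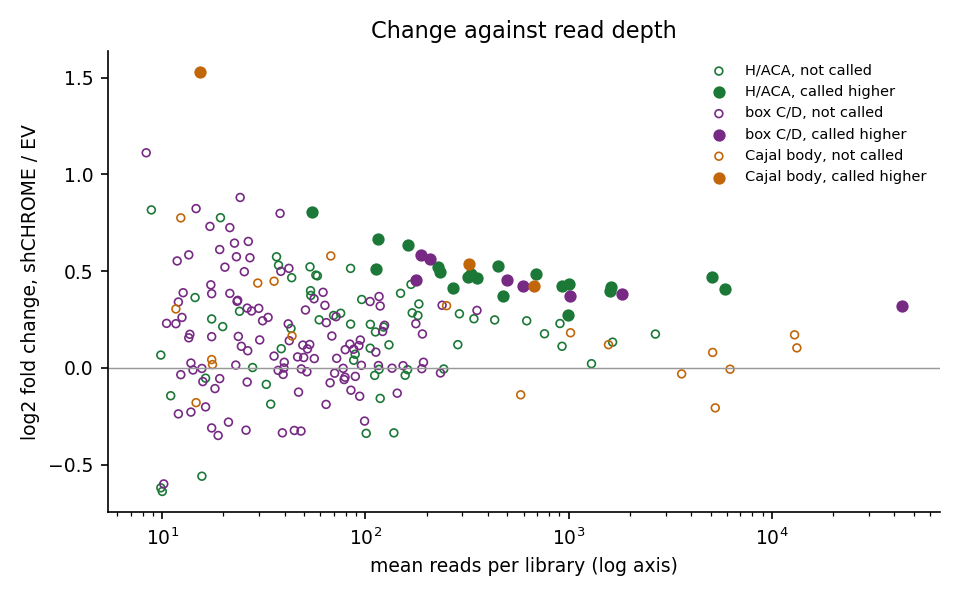
Log2 fold change (shCHROME over EV) of each tested RNA against its mean reads per library (log axis), coloured by class, with filled points called higher. The called RNAs run from 15.3 mean reads for SCARNA11 to 43710 for SNORD17. Unfilled points beyond 2673 mean reads, the most of any uncalled H/ACA RNA, are Cajal body RNAs.

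Since most of these RNAs are cut from host transcripts, the hosts were compared in the same fit. A host listed in the table was found for 208 members, and in 166 pairs both were tested, with 104 different hosts. Of these hosts 3 were called higher (2.88%, against 3.64% of all genes), 8 lower (7.69% against 6.87%) and 93 neither. The median log2 fold change over the 166 pairs was 0.22 for the small RNAs and -0.02 for their hosts, a host standing once for each of its RNAs. Over the 104 hosts it was 0.00. A host of several RNAs is 1 gene, so that the pairs are not independent. The small RNA had the higher value of the 2 in 130 pairs. Of the 31 called members 24 had a tested host, and 1 of these hosts was called lower while 23 were not called. Reads from a small RNA and from an unspliced or exon-retaining host cannot be told apart in these counts.

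The host called lower was EIF4A2, a translation initiation helicase and the host of SNORA63. It stood at 14445, 13735 and 15441 normalized counts in shCHROME, against 16257, 17242 and 16274 in EV, a log2 fold change of -0.19 (adjusted p 0.0385), where that of SNORA63 was 0.47. SNX5, a sorting nexin and the host of SNORD17, averaged 20095 ± 750 in shCHROME and 19776 ± 1072 in EV (SD, n = 3 each), a log2 fold change of 0.02, where that of SNORD17 was 0.32. TAF1D, a subunit of an RNA polymerase I factor, had -0.15 (adjusted p 0.131), where SNORA8 in it had 0.49. CHD4, a chromatin remodeller, had 0.05, where SCARNA11 had 1.53. The host furthest from 0 among those of called members was ZBED3, which holds SNORA47, with 0.73 (adjusted p 0.11). EIF4A1, the host of SNORA48, SNORD10 and SNORA67, is listed at 0 in each library, although this helicase is used by every cell, so that it gives no value here.

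Several hosts hold more than 1 member, whose values are given side by side, and differences between RNAs of 1 host were not tested. In EIF4A1, SNORA48, SNORD10 and SNORA67 had log2 fold changes of 0.41, 0.38 and 0.28, the last not called (adjusted p 0.126). In EIF4A2, SNORA63 had 0.47 and was called, while SNORA4, SNORD2 and SNORA81 had 0.19, 0.11 and -0.09 and were not. TAF1D holds 8 members, of which SNORA8 was called and SNORA40, SNORA18, SNORA1, SNORD6, SNORA32, SNORD5 and SNORA25 had 0.28, 0.12, 0.07, -0.01, -0.04, -0.05 and -0.16. In the ribosomal protein gene RPS3, SNORD15B was called with 0.42 and SNORD15A had 0.19. In SNHG12, SNORA61 was called with 0.53 and SNORA44 had 0.33. ATG16L1, an autophagy gene, was called lower with -0.43 (adjusted p 0.000588), while SCARNA5 and SCARNA6 in its introns had 0.08 and -0.03.

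**Figure D5:**
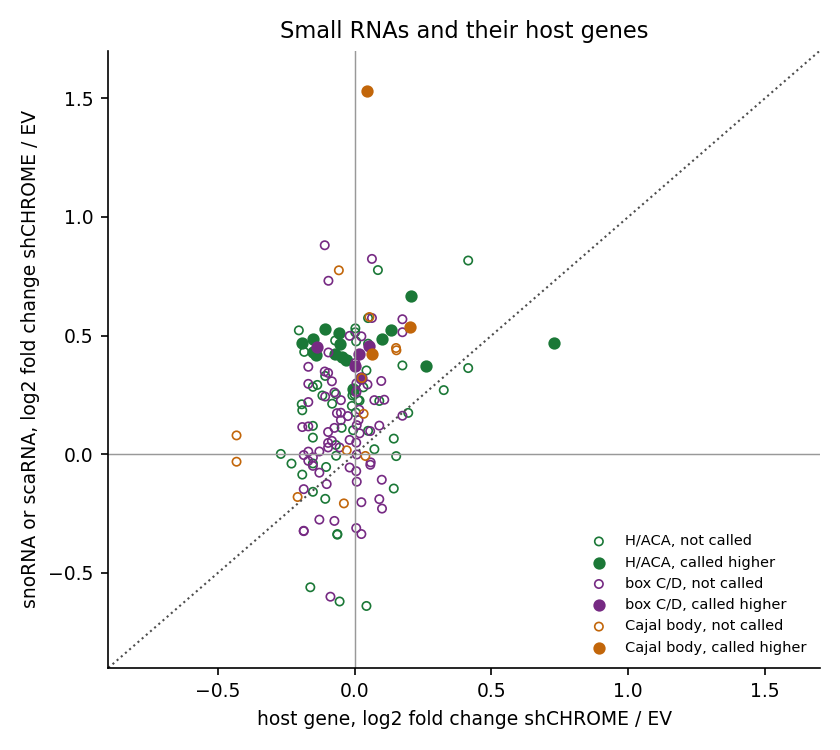
Log2 fold change (shCHROME over EV) of each small RNA against that of its host gene, for the 166 pairs with both tested, coloured by class, with filled points for small RNAs called higher and a dotted line of equal change. In 130 pairs the small RNA lies above the line, and the hosts of called RNAs run from -0.19 (EIF4A2) to 0.73 (ZBED3).

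Genes that build and handle these RNAs were taken from 5 lists, with 50 genes tested. Of these 6 were higher (12%, against 3.64% of all genes) and 0 were lower by limma, with 1 lower at an unadjusted p under 0.05. The log2 fold change was above 0 in 38 of the 50, with a median of 0.09. Of the 4 core proteins of box C/D particles, NOP56 was higher in shCHROME, with 6289 ± 159 normalized counts in shCHROME and 5572 ± 84.3 in EV (SD, n = 3 each, adjusted p 0.0439), and fibrillarin (FBL), NOP58 and NHP2L1 were not called. Of the 4 core proteins of H/ACA particles, NHP2 was higher, with 2567 ± 159 in shCHROME and 2124 ± 170 in EV (adjusted p 0.0174), and dyskerin (DKC1), NOP10 and GAR1 were not called, GAR1 with a log2 fold change of -0.18. Of 10 assembly factors 2 were higher, NUFIP1, an adaptor of box C/D assembly, with a log2 fold change of 0.34 and the ATPase RUVBL1 with 0.32. Of 12 tested genes of Cajal bodies and small RNA transport, TCOF1 alone was called, higher with 0.23. Of 20 genes of RNA decay and trimming, the exosome subunit EXOSC9 alone was called, higher with 0.41. The medians of these lists lay between 0.04 and 0.13.

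Well-known hosts were read against the 3.64% of all genes called higher and 6.87% called lower. Of 15 tested noncoding hosts SNHG11 was higher and SNHG3, SNHG7, EPB41L4A-AS1 and DANCR were lower, with a median of -0.07. Of 48 tested coding hosts 0 were higher by limma, edgeR or DESeq2, with 0 at an unadjusted p under 0.05, and EIF4A2, RPL7A, RPL12, RCC1 and ATG16L1 were lower, with a median of 0.00. Of 48 tested replication-dependent histone genes, whose messages also lack a poly(A) tail, 0 were called in either direction by the 3 tools, with 1 higher at an unadjusted p under 0.05 and a median of 0.02.

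Other short structured RNAs were counted in the same libraries. Of 17 listed, 11 were tested. Of these 6 were higher (54.5%, against 3.64% of all genes) and 5 were not called. The median log2 fold change of the 11 was 0.43. The minor spliceosome RNAs RNU12, RNU11 and RNU6ATAC were higher, as were the vault RNAs VTRNA1-1, VTRNA1-2 and VTRNA1-3. RNU12 stood at 1231, 1306 and 1272 normalized counts in shCHROME, against 948, 806 and 750 in EV (log2 fold change 0.61, adjusted p 0.000126). VTRNA1-1 had the largest value, 0.96, on 61.6, 67.2 and 43.6 in shCHROME against 36.8, 24.7 and 25.9 in EV. Among the 5 not called, RPPH1, the RNA of RNase P, averaged 487789 ± 19502 in shCHROME and 481943 ± 34468 in EV (SD, n = 3 each). RMRP, the RNA of RNase MRP, averaged 168490 ± 2377 in shCHROME and 168919 ± 13213 in EV. The telomerase RNA TERC, which carries an H/ACA domain and was also not called, averaged 897 ± 159 in shCHROME and 897 ± 108 in EV. The remaining uncalled RNAs of this list are not named here, and lengths were not read for it.

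At the edge of the detection rule, SNORD115-1 had 4, 1 and 0 reads in shCHROME and 1, 0 and 0 in EV, and SNORD116-10 had 1, 0 and 1 in shCHROME and 0, 0 and 4 in EV. Just outside it SNORA36B, SNORA70E, SNORA9, SNORD115-35 and SNORD90 had 1 to 4 reads over all libraries. Near-identical copies also touch called members other than the SNORD116 pair: SNORA48, SNORA63, SNORA8, SNORA70, SNORA78, SNORA76, SNORA22, SNORA10, SNORA14A and SCARNA16 have at least 1 annotated RNA at least 90% identical to them, so that their counts may hold or lose reads of a copy.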

How the data were processed

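Total RNA of 6 HepG2 libraries, 3 per group, went through an Illumina TruSeq RNA preparation and paired-end HiSeq sequencing, per the labels' protocols. Whether poly(A) selection or removal of ribosomal RNA was used, and the fragment size, are not given in the sources used here. The submitters' processing notes name STAR 2.5, featureCounts 1.5.2 and DESeq2 (given as 3.4), with hg19 as the build. Annotation and use of strand in counting are not given in the sources used here. The authors deposited 1 table of normalized counts, a signal made of reads divided by a size factor. The deposited table also holds the authors' log2 fold change per gene and, for each, a p-value as well as its adjusted form. Its 24656 rows held 23368 distinct genes, and 1288 repeated rows were dropped. Dividing each library by its smallest step gave whole reads for 100% of values, within 0.01 reads.

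The main test was limma 3.58.1 (moderated, with trend) on log2(value + 1). Group was its sole term, filterByExpr of edgeR 4.0.16 chose the genes from recovered reads, and p-values were adjusted after Benjamini and Hochberg over 14598 genes. Fold changes on this scale understate those of low genes. On the recovered reads, edgeR's quasi-likelihood test and DESeq2 1.42.0 called 1553 and 1637 genes, against 1535. No set test was run. Replicates scattered beyond counting error, with chi-square per degree of freedom of 5.69 to 17. Alternatives changed the library scaling, the filter or the pseudocount (0.1 or 5), added a replicate block, or dropped each library in turn. The limma script was checked on simulated data.

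Lengths, sequences and hosts came from GENCODE release 29 by symbol, for 250 of 273 members. A host was a gene spanning the member on its strand. Coordinates are GRCh38 and none was converted. Candidates for naming were all called members and the 5 with the most reads per class. So were the 3 largest changes per direction and class with a mean of at least 20 reads. Non-overlapping members with a mean of at least 50 reads, hosts and the core proteins were added. Not named above were SCARNA23, many uncalled non-overlapping members and some hosts. The members and lists were chosen with earlier results of these data known.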

Additional observations from a re-analysis of the deposited data

How the results depend on the processing

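Of the 31 called members, 18 kept the call under all 17 alternatives, 7 lost it under 1 to 3 and 6 under 4 or more: SNORA47, SNORA68, SNORD89, SNORA50, SNORA10 and SNORA14A. Calls kept numbered 31 under each other scaling, each pseudocount and edgeR, 30 with a filter of 1 CPM, 29 with DESeq2, 27 with no filter beyond 1 read, and 20 to 29 with 1 library left out. SCARNA11, the called member with the fewest reads, had no adjusted p in DESeq2 and was not tested with the filter of 1 CPM.

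With libraries scaled to their totals, 936 was the count of all genes higher in shCHROME and 6 Cajal body RNAs were higher, and the median of all genes moved to 0.06 on the log2 scale. Leaving out a library gave 245 to 528 for all genes higher in shCHROME and 599 to 1051 for all genes lower in shCHROME, 12 to 20 H/ACA RNAs higher, 5 to 9 box C/D RNAs higher with a median log2 fold change of 0.082 to 0.18, 2 to 3 Cajal body RNAs higher and 0 to 1 lower. The causes were not tested. SCARNA12, with a log2 fold change near 0, had 0.042 with library totals, 0.010 with upper quartile scaling and -0.094 to 0.042 with 1 library left out. SCARNA6 had 0.018 with library totals and -0.098 to 0.018 with 1 library left out, and SNORA55 -0.32 to 0.080.

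Replicate letters shared by the groups did not pair the samples: same-letter deviations correlated at -0.05 (a), -0.09 (b) and 0.04 (c), and only the c libraries correlated best with their own letter. The replicate block gave 349 for all genes higher in shCHROME and kept 26 of the 31 calls.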
